A study of Homo sapiens with 12 samples.

Results

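The comparison was between NCM460 cells given TNF-α together with 5-OH-TMT and NCM460 cells kept in medium, which were 6 of the 12 poly-A RNA-seq libraries of the series, 3 in each group, chosen by their labelled treatment. NCM460 is an established human cell line that the labels give as colonic epithelial. 5-OH-TMT (5-hydroxy-N,N,N-trimethyltryptamine, bufotenidine in the labels) is a quaternary ammonium derivative of bufotenine. All 6 libraries came from wild-type cells, so the groups differed in both the cytokine and the compound. The study's text gives a noncytotoxic concentration of 5-OH-TMT for its work in these cells, but the sources used here do not tie a dose or duration to these libraries. The question was how much of an inflammatory response was present in cells that held the drug together with the cytokine. The 3 libraries of TNF-α alone were used only beside it, where a difference between the groups with TNF-α is tested.

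TNF-α binds its receptor at the cell surface and releases NF-κB, a family of dimeric transcription factors, from its IκB inhibitors. NF-κB then switches on chemokines, cytokines, adhesion molecules and its own inhibitors, among them IκBα and the deubiquitinase A20, which close a negative feedback loop. In the gut epithelium this programme recruits neutrophils and lymphocytes and raises antimicrobial proteins and antigen presentation.

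Of 58735 annotated genes, 11149 had a mean of at least 1 FPKM (fragments per kilobase of transcript, scaled to library depth) over the 6 libraries and were tested on log2(FPKM + 0.1) with limma. At a Benjamini-Hochberg adjusted p under 0.05, 836 genes (7.50%) were higher and 334 (3.00%) were lower with TNF-α + 5-OH-TMT. The study calls a gene differentially expressed when its fold is 2 or more and its unadjusted p is 0.05 or less. By that threshold 160 genes (1.44%) were higher and 29 (0.260%) lower. The median log2 difference over all genes tested was -0.01. Nothing in the labels says that the libraries of a group came from separate cultures, so p-values measure the spread between these libraries only, and in bulk RNA fewer cells of a type and less RNA per cell cannot be told apart.

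Libraries held between 31008429 and 36407127 reads on genes. Library 2 of the medium group stood apart, with a chi-square per degree of freedom of 18.7 and 26.8 against the other medium libraries, which differed from each other by 10.01, and without it 1752 genes were higher and 1216 lower. Library 3 of the drug group was the highest of its group for all 19 NF-κB target genes tested, against 34.8% of all genes tested, and without it 464 genes were higher and 78 lower. A call on a gene with few reads is less secure: 732 of the genes tested had a mean under 100 reads, and 69 of the 1170 calls and 24 of the 29 lower genes at the study's threshold were among them. Of the markers of the labelled cell type, EPCAM, CDH1, KRT8, KRT18 and KRT19 were all measured, KRT8 at a mean of 1155 FPKM in medium. The intestinal markers CDX2, VIL1, CDH17, LGALS4, KRT20 and MUC2 summed to between 0.0111 and 0.219 FPKM in each of the 6 libraries, with CDX2 at 0 reads in all, so the labelled cell type had its epithelial markers but not its intestinal ones. Leukocyte markers summed to at most 0.739 FPKM and COL1A1 was the 1 fibroblast marker over the filter. Endothelial markers summed to 0.491 to 0.597 FPKM in medium and 1.77 to 2.01 with TNF-α + 5-OH-TMT, through CDH5 alone (74, 57 and 72 reads against 343, 326 and 405). Its part in the results was not tested.

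The upstream sequences of a few NF-κB target genes described next are shown because a match to the consensus site for the factor can be read in them. They are the 250 bases before the RefSeq start (GRCh38.p14), 5′ to 3′, with matches to the NF-κB consensus decamer, searched on both strands, in capitals.
TNFAIP3, chr6:137867009-137867258, plus strand: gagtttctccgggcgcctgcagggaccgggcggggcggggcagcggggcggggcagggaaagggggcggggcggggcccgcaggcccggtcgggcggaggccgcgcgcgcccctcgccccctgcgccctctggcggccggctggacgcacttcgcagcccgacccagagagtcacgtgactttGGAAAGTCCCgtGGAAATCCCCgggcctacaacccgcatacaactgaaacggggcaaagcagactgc
NFKBIA, chr14:35404750-35404999, minus strand: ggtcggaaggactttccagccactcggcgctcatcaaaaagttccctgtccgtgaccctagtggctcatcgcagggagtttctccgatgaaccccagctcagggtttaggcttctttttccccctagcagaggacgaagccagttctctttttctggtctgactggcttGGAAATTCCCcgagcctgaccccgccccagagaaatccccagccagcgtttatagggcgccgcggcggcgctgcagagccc
CXCL1, chr4:73869143-73869392, plus strand: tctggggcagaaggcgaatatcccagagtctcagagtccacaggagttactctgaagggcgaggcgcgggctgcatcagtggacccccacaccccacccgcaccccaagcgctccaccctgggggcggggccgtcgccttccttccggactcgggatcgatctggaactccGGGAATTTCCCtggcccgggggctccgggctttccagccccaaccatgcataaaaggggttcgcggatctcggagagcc
CCL20, chr2:227813592-227813841, plus strand: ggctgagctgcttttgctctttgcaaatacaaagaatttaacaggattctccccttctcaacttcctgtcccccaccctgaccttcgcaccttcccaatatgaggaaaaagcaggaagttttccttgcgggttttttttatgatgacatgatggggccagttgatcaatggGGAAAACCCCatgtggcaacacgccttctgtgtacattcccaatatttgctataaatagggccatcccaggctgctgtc
Of the 28 genes listed as NF-κB targets, 23 were in the promoter table, and 13 of these 23 held a match. The share was 9.96% of all 35116 promoters of the same length and 12.1% of the 11692 promoters of genes tested. CXCL8 and ICAM1, described below, were among those with 0 matches. Sequences close to the decamer but not matching it in full were not counted, so 0 matches does not mean that a site is absent. TNFAIP3 held a pair of matches that began 67 and 55 bases before the start, and NFKBIA 1 that began 81 bases before it. The matches of CXCL1 lay 1 base apart, on opposite strands, and overlap in the capitals. A match is a description of the letters and not a measured site.

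NF-κB target genes were high with the drug present. TNFAIP3, which encodes A20, measured 1.22, 1.31 and 1.11 FPKM in medium and 26.5, 24.1 and 40.4 FPKM with TNF-α + 5-OH-TMT. TNFAIP3 rose by 4.50 ± 0.17 on the log2 scale (SE, n = 3 per group, limma adjusted p = 8.58e-07), and its lowest drug library was far above its highest medium library. NFKBIA, which encodes IκBα, measured 29.5, 31.3 and 31.0 FPKM in medium and 144.6, 140.4 and 164.8 FPKM with TNF-α + 5-OH-TMT, a rise of 2.29 ± 0.08 (limma adjusted p = 6.06e-07). RELB, an NF-κB subunit, measured 0.780, 1.03 and 0.656 FPKM in medium and 20.9, 19.5 and 23.8 FPKM with TNF-α + 5-OH-TMT. The groups lay far apart, and RELB rose by 4.56 ± 0.15 (limma adjusted p = 6.06e-07). Its mean was under 1 FPKM in medium, so it entered the test through the drug group alone.

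All 19 of the NF-κB target genes tested were called higher, with a median log2 difference of 2.72. Of the 28 listed, 9 were not tested, and 8 of the 19 passed the filter through the drug group alone, so their count carries no weight. The 11 with a mean of at least 1 FPKM in both groups were all called higher, with a median of 2.20. Without a filter on low values, 24 of the 27 with any read were called higher and 3 were not called. Summed over all 28, their level was 98.7 to 108.8 FPKM in the medium libraries and 539.3 to 760.3 FPKM in the TNF-α + 5-OH-TMT libraries. Among subunits and inhibitors of NF-κB, 8 of 13 tested of 14 listed rose and none fell, or 7 of 12 over the filter in both groups. NFKB2, the precursor of p52, rose by 2.72, NFKBIE by 1.87, the IκB family member BCL3 by 1.55, NFKB1 by 1.33 and RELA, the p65 subunit, by 0.40. Genes listed as regulators of TNF receptor signalling had 10 of 26 tested of 30 listed higher, or 9 of 24 over the filter in both groups. They were led by TNFAIP3, with TNFAIP2 at 3.17 and the ubiquitin ligase BIRC3 at 2.82 (entered through the drug group alone). The A20 partner TNIP1 rose by 2.22 and the ribonuclease ZC3H12A by 1.45. TNFAIP3, TNFAIP2 and BIRC3 are also on the NF-κB target list, and a role of TNFAIP2 at the receptor was not examined.

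**Figure D1:**
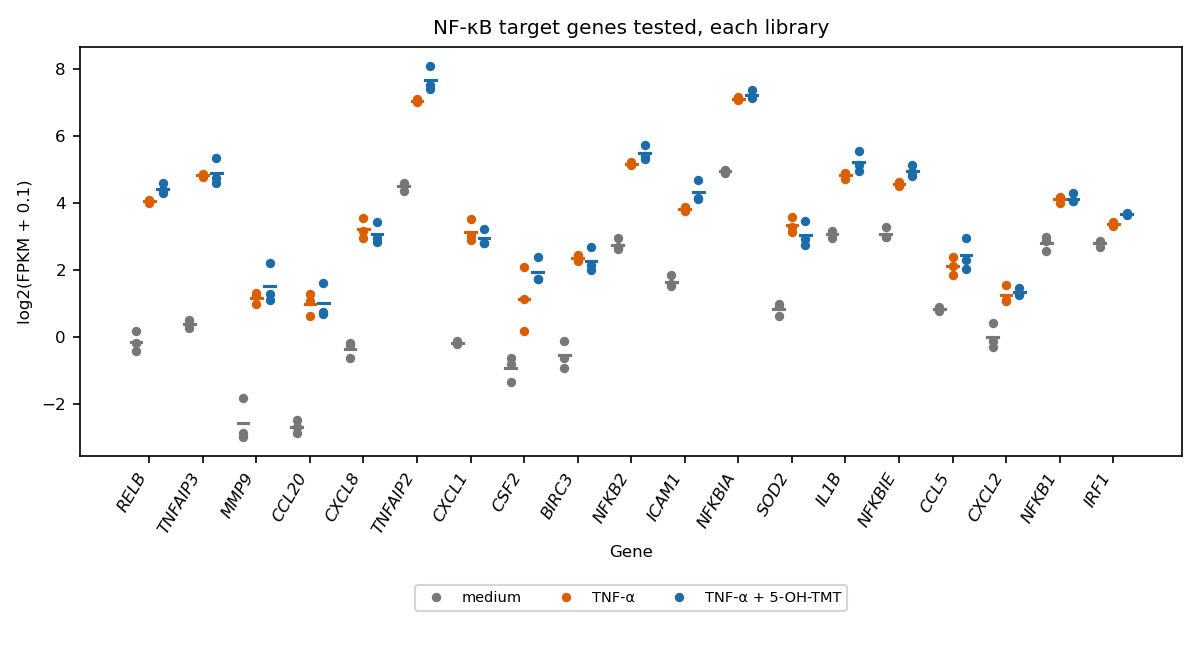
Level of each of the 19 NF-κB target genes tested, as log2(FPKM + 0.1), in each library of medium, TNF-α alone and TNF-α + 5-OH-TMT, with genes ordered by their difference between TNF-α + 5-OH-TMT and medium. Points are libraries and bars are group means over 3 libraries. Every TNF-α + 5-OH-TMT library lies above every medium library, as for 1880 of all 11149 genes tested. Of the 19 genes, 8 passed the filter through the drug group alone, so their place in this count carries no weight.

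Chemokines, which draw leukocytes along a gradient, were higher for 7 of 9 tested of 29 listed, and 20 were under the filter. CXCL8, a neutrophil attractant, measured 0.546, 0.754 and 0.781 FPKM in medium and 7.03, 7.66 and 10.7 FPKM with TNF-α + 5-OH-TMT, and rose by 3.42 ± 0.18 (limma adjusted p = 4.54e-06). CXCL1, of the same function, rose by 3.11. CXCL8, CXCL1, CXCL2 and CCL20 were under 1 FPKM in medium and entered the test through the drug group alone. CCL20, which attracts cells with the receptor CCR6, rose by 3.70, but from 3, 4 and 2 reads in medium to 88, 86 and 170 reads, so the pseudocount holds its fold down. CCL5 rose by 1.59 and CXCL2 by 1.34. Reads of CXCL1 and CXCL2 may be shared with near-identical copies. Among chemokines over the filter in both groups, 3 of 5 were called higher.

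Inflammatory cytokines and growth factors were higher for 8 of 12 tested of 37 listed. IL1B, a pyrogenic cytokine, measured 7.64, 8.76 and 8.40 FPKM in medium and 34.8, 30.6 and 46.4 FPKM with TNF-α + 5-OH-TMT. The groups did not overlap, and IL1B rose by 2.14 ± 0.14 (limma adjusted p = 1.68e-05). IL1A rose by 1.91, CSF1, which sustains macrophages, by 1.85, CSF2 by 2.87 and EBI3 by 2.33, the last pair having entered through the drug group alone. Of the 8 over the filter in both groups, 5 were called higher.

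Adhesion, protease and matrix genes were higher for 14 of 19 tested of 27 listed, or 13 of 17 over the filter in both groups. ICAM1, the leukocyte adhesion receptor, measured 2.80, 3.52 and 2.88 FPKM in medium and 17.6, 17.2 and 25.7 FPKM with TNF-α + 5-OH-TMT, and rose by 2.66 ± 0.15 (limma adjusted p = 8.55e-06). MMP9, a gelatinase, rose by 4.08 from 3, 2 and 14 reads and entered through the drug group alone. PLAU, the urokinase, rose by 2.37 and its inhibitor SERPINB2 by 2.81. Of the defence genes of the epithelium, 6 of 7 tested of 37 listed rose, or 5 of 6 over the filter in both groups. They included LCN2, which binds bacterial siderophores, at 1.56, complement C3 at 1.54, S100A9, a calprotectin subunit, at 1.42, and SAA1, an acute phase protein, at 4.07. SAA1 entered through the drug group alone and may share reads with its near-identical neighbour.

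**Figure D2:**
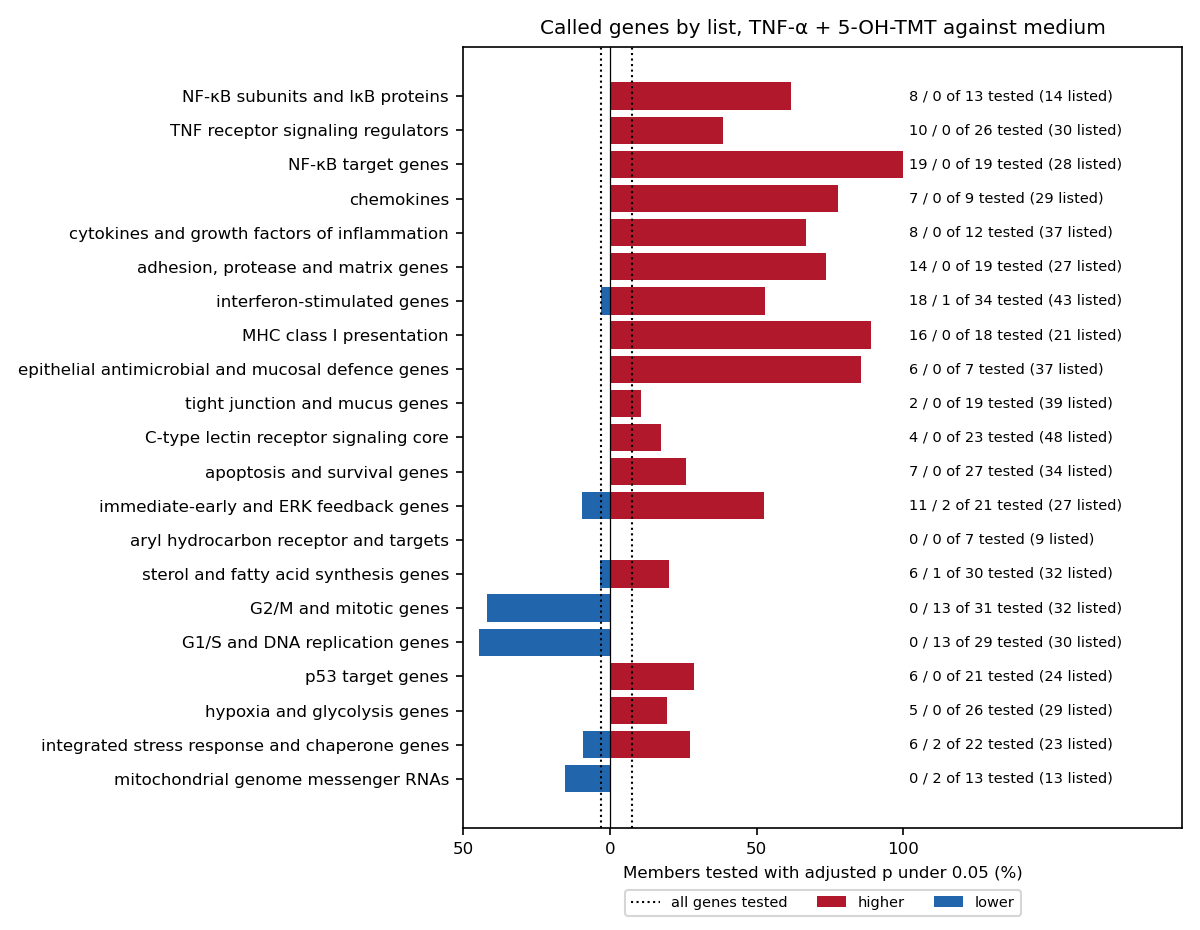
Share of tested members of each gene list with an adjusted p under 0.05, in percent, for TNF-α + 5-OH-TMT against medium (3 libraries each), higher to the right and lower to the left of 0. Dotted lines mark 7.50% higher and 3.00% lower over all 11149 genes tested, members that passed the filter through the drug group alone are included, and figures beside the bars give the higher and lower counts, of which the NF-κB target, MHC class I and antimicrobial lists lie far to the right and the cell cycle lists to the left.

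Interferon-stimulated genes were more divided, with 18 higher and 1 lower of 34 tested of 43 listed, or 17 and 1 of 33 over the filter in both groups. GBP1, a guanylate-binding GTPase, rose by 2.15 and OAS1, an RNA-sensing synthetase, by 1.53. IFIT1, which binds viral RNA, measured 18.7, 15.9 and 19.1 FPKM in medium and 12.2, 13.5 and 11.5 FPKM with TNF-α + 5-OH-TMT, and fell by 0.52 on the log2 scale (limma adjusted p = 0.00753). Antigen presentation through MHC class I was higher for 16 of 18 tested of 21 listed, all 18 of which were over the filter in both groups. PSMB9, an immunoproteasome subunit, measured 7.63, 8.54 and 8.20 FPKM in medium and 27.0, 23.4 and 24.9 FPKM with TNF-α + 5-OH-TMT, and rose by 1.62 ± 0.08 (limma adjusted p = 3.59e-06). TAP1, the peptide transporter, rose by 1.56, TAPBP by 1.29, PSMB10 by 1.06 and HLA-B by 0.98. Over the inflammatory lists together, 87 genes were higher and 1 lower of 138 tested and 239 listed. Over the 123 that passed the filter in both groups, 75 were higher and 1 lower, with a median log2 difference of 0.46, against 7.33% higher and 2.95% lower of the 10842 genes tested that did so.

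Against TNF-α alone, in 1 fit to all 12 libraries, 134 of the 11149 genes (1.20%) differed with TNF-α + 5-OH-TMT, 83 of them higher. None of the 19 NF-κB target genes tested was among them, and of the 138 inflammatory genes tested 3 were, all higher with the drug: PSMB9 by 0.58, PSMB10 by 0.53 and IFI35 by 0.52. The median difference of the NF-κB targets was 0.31 (TNF-α + 5-OH-TMT minus TNF-α), and 15 of 19 lay above 0, against 5593 of all 11149 genes. Of the 19, 8 had passed the filter through the drug group alone, and library 3 of that group was its highest for all 19. RELB differed from TNF-α alone by 0.38 ± 0.13 (adjusted p = 0.104), TNFAIP3 by 0.06 ± 0.14 (adjusted p = 0.788) and CXCL8 by -0.14 ± 0.20 (adjusted p = 0.658). Such p-values do not show that the groups were alike. Relative to medium, the NF-κB target median was 2.40 with TNF-α alone and 2.72 with TNF-α + 5-OH-TMT, values that share their medium libraries.

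Immediate-early genes, which respond to growth factor and stress signals within minutes, split, with 11 higher and 2 lower of 21 tested of 27 listed. Over all genes tested 7.50% were higher and 3.00% lower. Against TNF-α alone 4 of the 21 were called, all higher, where 1.20% of all genes tested were called. EGR1, a zinc finger factor, measured 146.6, 140.3 and 143.1 FPKM in medium, 47.4, 52.2 and 42.1 FPKM with TNF-α alone and 83.3, 75.9 and 79.9 FPKM with TNF-α + 5-OH-TMT. The drug libraries lay between the others without overlap. EGR1 fell by 0.85 on the log2 scale against medium (limma adjusted p = 5.39e-05) and was higher than with TNF-α alone by 0.76 ± 0.09 (limma adjusted p = 0.00756). FOS, of the AP-1 family, fell by 1.42 against medium and was higher than with TNF-α alone by 0.79 (limma adjusted p = 0.0219). FOSL1 rose by 1.12, DUSP6, an ERK phosphatase, by 0.90, and JUN by 0.76.

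Genes of xenobiotic and sterol metabolism were among the calls against TNF-α alone, with 2 and 9 members. CYP1A1, a target of the aryl hydrocarbon receptor, measured 13.5, 15.4 and 14.0 FPKM in medium, 5.17, 4.64 and 6.09 FPKM with TNF-α alone and 18.8, 17.0 and 14.0 FPKM with TNF-α + 5-OH-TMT. CYP1A1 differed from medium by 0.20 ± 0.11 (limma adjusted p = 0.262) and from TNF-α alone by 1.63 ± 0.12 (limma adjusted p = 3.94e-05). Of the 9 genes listed for that receptor 7 were tested, and none was called against medium. Sterol and fatty acid synthesis genes had 6 higher and 1 lower of 30 tested of 32 listed against medium, among them SCD, the desaturase, at 0.47. The shares over all genes tested were 7.50% higher and 3.00% lower. Against TNF-α alone 9 of the 30 were called, all higher, against 1.20% of all genes tested. Of the 30, 27 lay above 0, against 5593 of all 11149 genes.

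Genes of cell division were lower, by small differences. Of 31 G2/M genes tested of 32 listed 13 were lower and none higher, with a median log2 difference of -0.29. Of 29 G1/S and replication genes tested of 30 listed 13 were lower and none higher, with a median of -0.26. Over all genes tested 3.00% were lower. MAD2L1, of the spindle checkpoint, measured 19.6, 17.9 and 21.1 FPKM in medium and 13.3, 14.0 and 13.1 FPKM with TNF-α + 5-OH-TMT. It fell by 0.53 on the log2 scale (limma adjusted p = 0.00299). Its difference from TNF-α alone was -0.43 (TNF-α + 5-OH-TMT minus TNF-α, limma adjusted p = 0.0486), also a lower level. MAD2L1 was the 1 of 31 G2/M genes called against TNF-α alone. Of the 29 G1/S genes, 2 were called there, each lower. Over all genes tested the share called in that comparison was 1.20%. The median difference from TNF-α alone was -0.21 for G2/M genes, with 6 of 31 above 0. For G1/S genes it was -0.23, with 8 of 29 above 0. Over all genes tested 5593 of 11149 lay above 0. Relative to medium, the medians with TNF-α alone were -0.12 for G2/M and -0.07 for G1/S genes. RFC3, of the clamp loader, and MCM6, of the replicative helicase, fell by 0.54 and 0.45 against medium, and TOP2A, the topoisomerase, by 0.46. CDKN1A, the cyclin-dependent kinase inhibitor p21, measured 35.4, 46.8 and 39.8 FPKM in medium and 84.4, 84.0 and 91.7 FPKM with TNF-α + 5-OH-TMT, and rose by 1.10 (limma adjusted p = 0.00013). The number of calls depended on the libraries: leaving out 1 library gave 2 to 21 G2/M genes and 5 to 16 G1/S genes called lower, the fewest without library 3 of the drug group, equalled for G2/M genes by library 1, and the most without library 2 of the medium group. Across these fits the medians stayed between -0.31 and -0.25 for G2/M and between -0.30 and -0.24 for G1/S genes. The calls also depended on the model and filter. Without the mean-variance trend 5 G2/M and 9 G1/S genes were called lower, and with no filter 5 and 6. With a mean of at least 0.1 FPKM 7 and 10 were called lower, and with voom on the recovered reads 18 and 14.

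**Figure D3:**
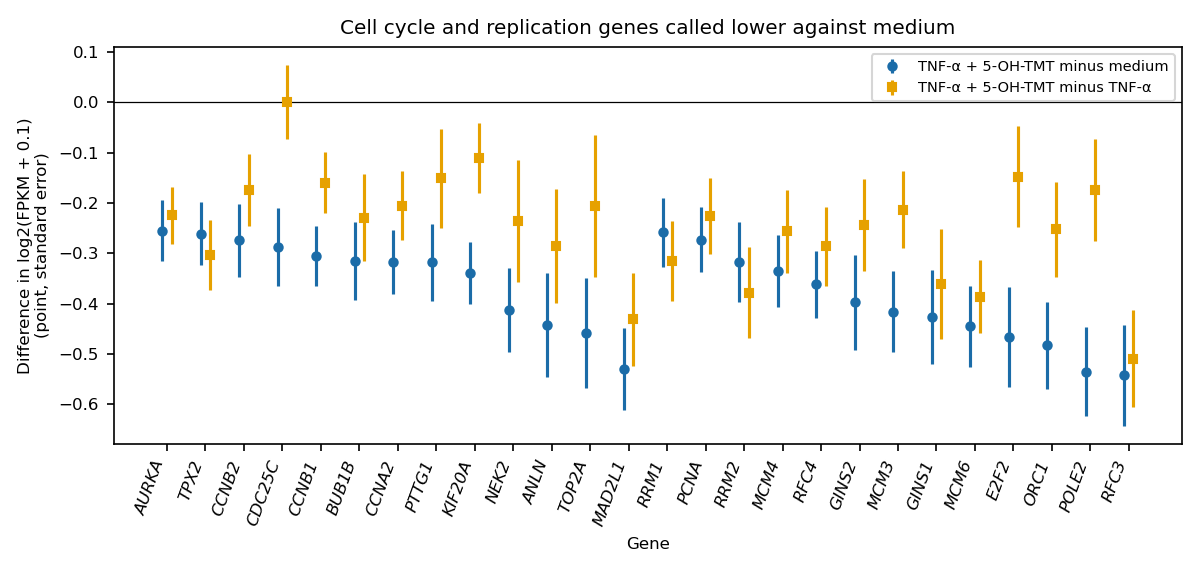
Difference in log2(FPKM + 0.1), with its standard error, of each cell cycle and replication gene called lower against medium, for TNF-α + 5-OH-TMT minus medium and minus TNF-α alone (3 libraries per group). The genes were chosen by their difference from medium, so the blue points are a description, and they lie between -0.26 and -0.54.

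The other lists are read against the 7.50% higher and 3.00% lower of all genes tested. Apoptosis and survival genes were higher for 7 of 27 tested of 34 listed, with BBC3, which encodes PUMA, at 1.59, and p53 targets for 6 of 21 tested of 24 listed. Hypoxia and glycolysis genes were higher for 5 of 26 tested of 29 listed, stress response and chaperone genes for 6 of 22 tested of 23 listed with 2 lower, and mitochondrial genome mRNAs were lower for 2 of 13. Among tight junction and mucus genes 2 of 19 tested of 39 listed rose, CLDN1 by 1.38 and MUC1 by 0.95, a share of 10.5% that is near that of all genes. Of the core of C-type lectin receptor signalling, the pathway the study examined, 4 of 23 tested of 48 listed rose: PLK3 by 1.35, CCL22 by 1.13, CASP1 by 0.87 and ITPR3 by 0.35. The median log2 difference of the 23 was 0.04, and with no filter 2 of 40 were called higher. For the drug, the study set this pathway against TNF-α alone, using genes at its fold and unadjusted p threshold. It also used gene set enrichment, qPCR and protein measurements. Against TNF-α alone 0 of the 23 were called here at an adjusted p under 0.05. CLEC7A, SYK and CARD9, which the study names, were under the filter and could not be called. The threshold differs from the study's and the list is only a core, so this count does not test the reported enrichment.

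Of 16 genes that the study names, some of them cytokines it measured in mouse colon, 6 passed the filter. Against TNF-α alone 0 of the 6 were called, which does not show that the groups were alike. Their median log2 difference there was 0.02 (TNF-α + 5-OH-TMT minus TNF-α), with 3 of 6 above 0. Relative to medium, their median was 0.59 with TNF-α alone and 0.76 with TNF-α + 5-OH-TMT. The values that follow are against medium. CLDN1, a tight junction claudin, measured 24.4, 24.1 and 27.5 FPKM in medium and 64.4, 60.2 and 74.2 FPKM with TNF-α + 5-OH-TMT. TJP1, the junction scaffold ZO-1, differed by 0.14 (limma adjusted p = 0.371), OCLN, occludin, by 0.04 (limma adjusted p = 0.86) and HTRA2, a mitochondrial protease, by 0.05 (limma adjusted p = 0.792). CLEC7A, the receptor Dectin-1, had 46, 59 and 74 reads in medium and 92, 68 and 81 reads with TNF-α + 5-OH-TMT (two-sided exact permutation p = 0.3, the smallest possible being 0.1). SYK had 31, 40 and 19 reads against 19, 35 and 41, and CARD9 4, 0 and 14 against 17, 16 and 5. The groups overlapped for all 3. TNF had 0, 0 and 1 reads in medium and 55, 39 and 84 reads with TNF-α + 5-OH-TMT (two-sided exact permutation p = 0.1), and IL6 had 2, 8 and 14 reads against 49, 57 and 74, neither with any overlap. MUC2, NOD2, DEFB1, S100A8 and IL10 were also under the filter, IL10 at 0 reads in all drug libraries.

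**Figure D4:**
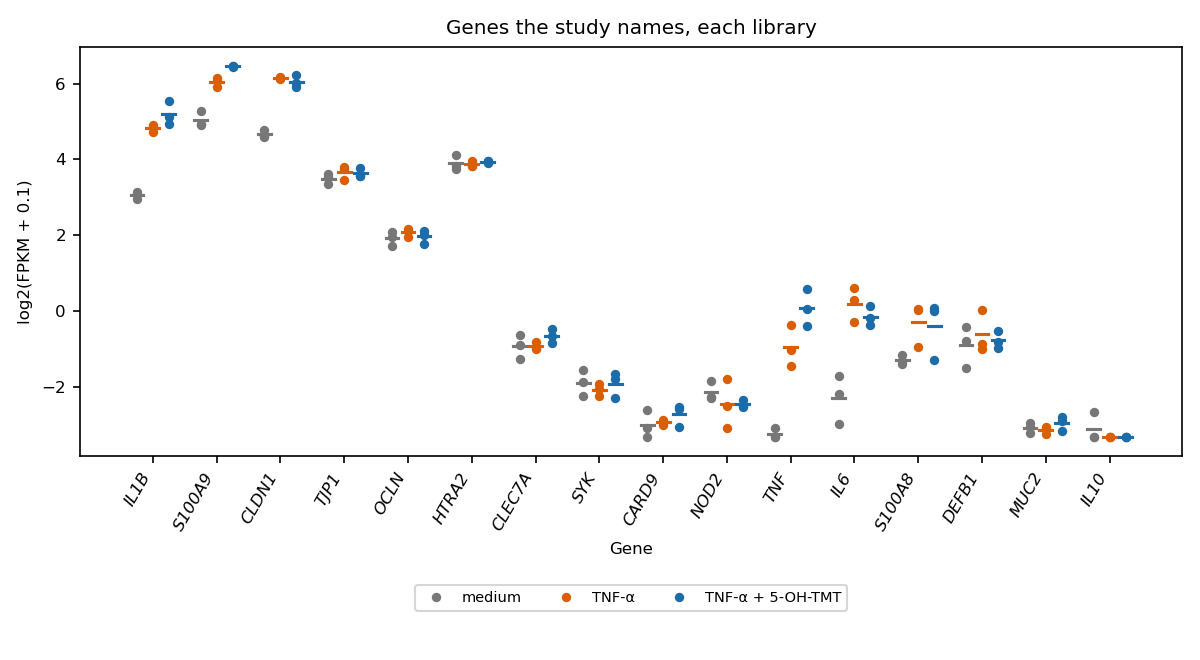
Level of the 16 genes the study names, as log2(FPKM + 0.1), in each library of medium, TNF-α alone and TNF-α + 5-OH-TMT, with group means as bars (3 libraries per group). IL1B, S100A9 and CLDN1 are higher with TNF-α + 5-OH-TMT than in medium, and 10 genes lie under the filter of a mean of 1 FPKM. Of the 6 over the filter, 0 were called against TNF-α alone.

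The genes that rose most were RELB, TNFAIP3, NEURL3, MMP9, SAA1, AP001052.1, CCL20, MIR6090, KRT6B and CXCL8. KRT6B, a keratin of activated epithelium, rose by 3.63 but may share reads with its near-identical copies, NEURL3, a ubiquitin ligase, rose by 4.28 from 0, 0 and 4 reads and entered through the drug group alone, and AP001052.1 and MIR6090 had at most 12 reads in any library. The genes that fell most were AC060780.3, MIR6781, MIR200C, SNORA28, FP236383.2, SNORA65, AC113410.3, HIST1H1E, RN7SL3 and AC110749.1, of which FP236383.2 alone averaged over 100 reads. Of the 29 genes lower at the study's threshold 15 were of small RNA classes and 4 were protein coding, against 131 protein coding of the 160 higher. Only 5 of the 29 had a mean of at least 100 reads, so the count of larger decreases rests on few reads.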

How the data were processed

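Total poly-A RNA of NCM460 cells was sequenced. Per the submitters' processing notes, CASAVA 1.8, HISAT2 2.0.4 and HTSeq 0.9.1 were used with hg38. The authors deposited 1 table of FPKM values, with gene lengths, and no other column of values was left unused (0 columns). All 58735 gene IDs had the coordinates of GENCODE 29, and 27 symbols that a spreadsheet had turned into dates were restored by ID. Where a symbol had more than 1 ID, the ID with the higher mean was used. FPKM times length was a whole multiple of 1 step per library for 100% of values above 0, within 0.1 of a read, which gave the reads.

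From these values, limma 3.58.1 in R 4.3.3 was fitted with a mean-variance trend to log2(FPKM + 0.1), with 4 residual degrees of freedom, for genes whose mean over the 6 libraries reached 1 FPKM. A fold change is on that scale, which understates low genes. Against TNF-α alone, 1 fit held all 12 libraries. Single genes under the filter were tested by the exact permutation of 3 against 3. The test was tried on simulated data, with reads drawn independently, the same spread for every gene and no shift shared by the genes of a library. In that setting genes with a mean of at least 100 reads kept the nominal false call rate, while genes under 100 reads gave too many false calls. The deposited libraries differed in ways the simulation left out, so it does not give their false call rate. An alternative without the genes under 100 reads is given. Named genes were the 10 that rose and the 10 that fell most among called genes without overlap between the groups, up to 5 members of each list by size of difference, the members that define a list, and the genes the study names. Some genes that this rule names are not reported here. Members that the drug changed against TNF-α alone were named as well, after their values were seen. The libraries and gene lists were chosen with earlier results of these data known. Alternatives changed the pseudocount, filter, scaling, variance model, libraries and pairing.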

Additional observations from a re-analysis of the deposited data

How the results depend on the processing

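With every other setting that kept the filter on low values, 19 NF-κB target genes were called higher, and with a lower filter or none 24 were, leaving aside the 3 stricter filters given next. With a mean of at least 1 FPKM in each group, an alternative chosen after seeing the data, 11 were called with a median of 2.20 and 12 genes were lower at the study's threshold. With a pseudocount of 1 the median was 1.85, and 105 genes were higher and 14 lower at that threshold. With no filter, 539 genes were called higher and 113 lower, and 417 were higher and 223 lower at the threshold. With a mean of at least 0.1, 194 were called lower, and 379 were higher and 184 lower at the threshold. Without the trend 197 genes were called lower, and with voom on the recovered reads 537. More than 3 reads in every library left 15 genes lower at the threshold and 17 NF-κB targets called, and a mean of at least 100 reads left 5 and 16, both alternatives chosen after seeing the data. Quantile normalization gave 812 higher and 497 lower calls. Leaving out 1 library gave 464 to 1752 higher and 78 to 1216 lower calls. HTRA2, not called, ranged from -0.025 (without medium replicate 3) to 0.16 (without medium replicate 2). The cause of these shifts was not tested, except that fewer or more genes enter under another filter.

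Whether the replicate numbers pair the libraries was not settled. Deviations of same-numbered libraries correlated at -0.05, -0.02 and 0.10, within the range of -0.17 to 0.18 of differently numbered libraries. With the replicate number as a block 740 genes were called higher and 276 lower, 165 were higher and 33 lower at the study's threshold, and 19 NF-κB targets were called higher.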
